A study of Mus musculus with 4 samples.

Results

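The colony-stimulating factors and their receptors were examined as 8 genes, the 4 ligand genes Csf1, Il34, Csf2 and Csf3 and the 4 receptor genes Csf1r, Csf2ra, Csf2rb and Csf3r. They were chosen by name as the ligands and receptors of myeloid growth, and all 8 were found among the 43432 genes of the count table. Of these 8, 6 passed the filter on low counts and were tested, while Csf2 and Csf3 did not. The RNA came from 4 subcutaneous tumours of 9464D-GD2 cells, a mouse neuroblastoma line, grown in female C57BL/6 mice. One group of 2 tumours came from mice given 25 µg dinutuximab, an antibody against the ganglioside GD2. The other group of 2 came from mice given 25 µg dinutuximab together with 20 µg sEVs, that is small extracellular vesicles, derived from 9464D-GD2 cells. Every mouse received 5 treatments, so all 4 tumours had been under the antibody and none was untreated. In both groups the titles carry the numbers 3 and 4. The question put here is whether the vesicles altered the expression of these growth factor genes in tumours under the antibody.

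Colony-stimulating factors are secreted proteins that keep myeloid cells alive and drive their division and maturation. CSF1 and interleukin 34 are unrelated in sequence and both bind CSF1R, the receptor tyrosine kinase on which most tissue macrophages depend. GM-CSF, the product of Csf2, binds a receptor made of a specific alpha chain (Csf2ra) and a shared beta chain (Csf2rb), and G-CSF, the product of Csf3, binds the neutrophil receptor encoded by Csf3r. In tumours, CSF1 is known for supporting macrophages, and GM-CSF is used in the clinic beside antibodies against GD2.

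None of the 8 genes was shown to differ between tumours given sEVs and tumours given dinutuximab alone. Csf1 and Csf1r were the most abundant ligand and receptor transcripts, and Csf2 and Csf3 were close to absent in every tumour. Of the 6 tested genes, 5 had positive and 1 had negative log2 fold changes, with a median of 0.25, against a median of 0.0015 over all 13823 tested genes, of which 50.3% were positive. By edgeR's quasi-likelihood test with Benjamini-Hochberg adjustment over all tested genes, 0 of the 6 passed (adjusted p from 0.908 to 0.992), where 0% of all tested genes did. At an unadjusted p under 0.05, 0 of the 6 were found, where 2.47% of all genes were higher and 3.1% lower. Both sEV tumours lay above both dinutuximab tumours in 0 of the 6 genes, against 18.1% of all tested genes, and below them in 0 of the 6, against 16.5%. DESeq2 and limma-voom also called 0 of the 6, where they called 45 of 22003 and 0 of 13823 genes.

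The 4 libraries held between 24452699 and 28187573 counts. The labelled tumour type was checked against neuroblastoma markers. Hand2 was measured at between 145 and 172 CPM (the count scaled to library size) and Isl1 at between 15.7 and 21.4 CPM, whereas Dbh had 0 counts in every library and Th had at most 3. Tumours of 1 group are biological replicates according to the design text. These are whole tumours, so that fewer cells of a type and less RNA per cell cannot be told apart.

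Levels of different genes were compared per length, as RPKM (counts per kilobase of exon, divided by the library size in the same way as CPM). The mean RPKM over the 4 tumours was 28.9 for Csf1, 17.9 for Csf1r, 6.95 for Csf2ra, 2.41 for Il34, 1.10 for Csf3r, 1.06 for Csf2rb, 0.253 for Csf2 and 0.0339 for Csf3. In this order the ranges of Csf1 and Csf1r overlapped, since Csf1r stood above Csf1 in dinutuximab tumour 4. Those of Csf3r and Csf2rb overlapped as well, and their order turned when the longest transcript was taken as the gene length (1.14 and 1.57 RPKM). All other neighbours kept their order in all 4 tumours.

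**Figure D1:**
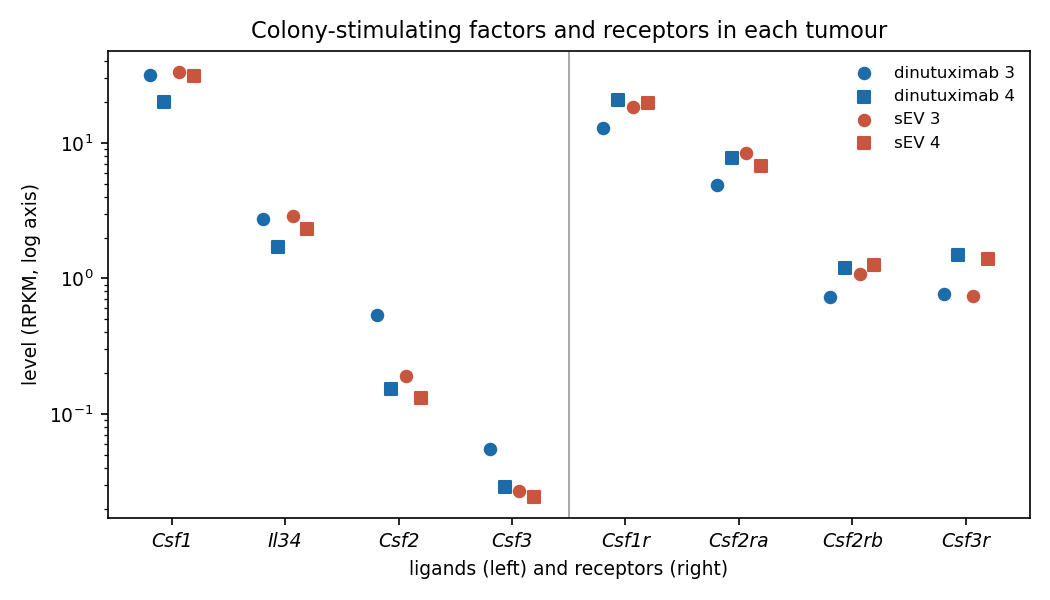
Level of each ligand and receptor gene (RPKM, log axis) in each tumour, with circles for tumour 3 and squares for tumour 4 of a group, blue for dinutuximab and red for added sEVs. Csf1 and Csf1r lie highest, at means of 28.9 and 17.9 RPKM, and no tested gene separates the groups.

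Csf1 (ENSMUSG00000014599, protein-coding, minus strand of chromosome 3, 107741048 to 107760469 on GRCm38) encodes the main growth factor of macrophages. Its level was 166 CPM in dinutuximab tumour 3, 106 in dinutuximab tumour 4, 176 in sEV tumour 3 and 164 in sEV tumour 4. Dinutuximab tumour 4 was the low one, and the other 3 tumours lay close together, so that the groups overlapped. The mean was 136 ± 42.7 CPM in the dinutuximab group and 170.0 ± 8.38 CPM in the sEV group (SD, n = 2). The log2 fold change was 0.32 ± 0.20 (SE), with a 95% interval from -0.14 to 0.78, that is from 0.91-fold to 1.72-fold, and edgeR's adjusted p was 0.908. Without dinutuximab tumour 4 the log2 fold change was 0.033, and without dinutuximab tumour 3 it was 0.69.

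Il34 (ENSMUSG00000031750, minus strand of chromosome 8, 110741829 to 110805924) encodes the other ligand of CSF1R, known from skin and brain. It was measured at 5.34 and 3.32 CPM with dinutuximab and at 5.65 and 4.54 CPM with sEVs added, in tumours 3 and 4. As with Csf1, dinutuximab tumour 4 was lowest and sEV tumour 3 highest. The log2 fold change was 0.23 ± 0.30 (SE; 95% interval from -0.46 to 0.93, edgeR adjusted p = 0.947), and it was -0.069 without dinutuximab tumour 4 and 0.62 without dinutuximab tumour 3. Per length, Csf1 stood above Il34 by 11.5-fold and 11.8-fold in the dinutuximab tumours and by 11.5-fold and 13.4-fold in the sEV tumours. The pair of ligands thus kept nearly the same ratio while both varied between tumours. Keratinocytes are a known source of interleukin 34, and of 4 keratinocyte markers Krt5 had 15 and Krt14 had 22 counts in sEV tumour 3 and 0 in the other 3 tumours. The 4 markers summed to 0.234 and 0.0409 CPM with dinutuximab and to 1.68 and 0.208 CPM with sEVs added, and their part in the Il34 level was not tested. Exons of 2 antisense genes overlap those of Il34 by 22 and 75 bases.

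Csf1r (ENSMUSG00000024621, plus strand of chromosome 18, 61100598 to 61132149) encodes the receptor shared by both ligands and is itself a marker of macrophages. Its level was 74.9 CPM in dinutuximab tumour 3, 120.1 in dinutuximab tumour 4, 106 in sEV tumour 3 and 113 in sEV tumour 4. Here dinutuximab tumour 3 was low and dinutuximab tumour 4 was the highest of all, with both sEV tumours between them. Means were 97.5 ± 32.0 CPM and 109 ± 5.20 CPM (SD, n = 2), and the log2 fold change was 0.16 ± 0.21 (SE; 95% interval from -0.31 to 0.64, edgeR adjusted p = 0.947). Without dinutuximab tumour 3 the sign turned, to -0.14, and without dinutuximab tumour 4 the value was 0.54. Exons of Hmgxb3 on the opposite strand overlap those of Csf1r by 873 bases, and the strand setting of the counting was not given in the sources used here.

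The ratio of Csf1 to Csf1r, per length, was 2.42 and 0.961 in dinutuximab tumours 3 and 4 and 1.82 and 1.59 in sEV tumours 3 and 4. The lowest and the highest ratio both came from the dinutuximab group. The sEV tumours lay between them and the groups overlapped.

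Csf2ra (ENSMUSG00000059326, minus strand of chromosome 19, 61223957 to 61228429) encodes the alpha chain that gives the GM-CSF receptor its specificity. It was measured at 14.1 and 22.1 CPM with dinutuximab and at 24.1 and 19.5 CPM with sEVs added. Dinutuximab tumour 3 was again the low one, and the groups overlapped. The log2 fold change was 0.27 ± 0.23 (SE; 95% interval from -0.25 to 0.80, edgeR adjusted p = 0.912), which became -0.017 without dinutuximab tumour 3 and 0.63 without dinutuximab tumour 4.

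Csf2rb (ENSMUSG00000071713, plus strand of chromosome 15, 78325752 to 78353847) encodes the beta chain shared by the receptors of GM-CSF, interleukin 3 and interleukin 5. Beside it lies Csf2rb2 (ENSMUSG00000071714, minus strand, 78282507 to 78305721), a copy whose product serves interleukin 3 alone in the mouse. The starts of both coding sequences are shown because their likeness bears on how reads are divided between the genes. They cover coding bases 1 to 120 of the GENCODE M21 transcripts, 5′ to 3′, with the 4 bases that differ in capitals.
Csf2rb: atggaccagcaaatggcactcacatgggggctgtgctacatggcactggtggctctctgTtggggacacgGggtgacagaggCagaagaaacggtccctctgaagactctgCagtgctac
Csf2rb2: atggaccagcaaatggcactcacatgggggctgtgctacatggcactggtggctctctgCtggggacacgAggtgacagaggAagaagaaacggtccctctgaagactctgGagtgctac

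Over the whole coding sequences, 2503 of 2628 aligned bases were identical, or 95.2%. Of the distinct 50-base stretches in the transcripts of Csf2rb, 12.3% also occurred in those of Csf2rb2, and of those of Csf2rb2 18.4% occurred in Csf2rb. At 100 bases these shares were 4.63% and 6.82%. Reads from such stretches cannot be given to 1 gene, and the counts of both genes are uncertain to that extent.

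Csf2rb was measured at 5.26 and 8.64 CPM with dinutuximab and at 7.79 and 9.19 CPM with sEVs added. Dinutuximab tumour 3 was lowest, and dinutuximab tumour 4 lay between the sEV tumours. The log2 fold change was 0.29 ± 0.28 (SE; 95% interval from -0.34 to 0.92, edgeR adjusted p = 0.926), and without dinutuximab tumour 3 it was -0.026, while without dinutuximab tumour 4 it was 0.69. Csf2rb2 was measured at 3.47 and 6.55 CPM with dinutuximab and at 3.90 and 4.82 CPM with sEVs added. Its log2 fold change was -0.20 ± 0.34 (SE; edgeR adjusted p = 0.961). With the counts of both copies summed, the log2 fold change was 0.10 (edgeR adjusted p = 0.975), under that of Csf2rb alone. The ratio of Csf2rb to Csf2rb2, per length, was 0.988 and 0.859 in the dinutuximab tumours and 1.30 and 1.24 in the sEV tumours. These ratios did not overlap between the groups. They were looked at because of the shared sequence, and with 2 tumours against 2 the smallest exact permutation p is 0.333.

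Csf2 (ENSMUSG00000018916, minus strand of chromosome 11, 54247271 to 54249667) encodes GM-CSF, a product of activated lymphocytes and of stroma. It had 11 and 3 counts in dinutuximab tumours 3 and 4 and 4 and 3 counts in the sEV tumours. Dinutuximab tumour 3 held most of them, at 0.429 CPM with an exact Poisson 95% interval from 0.214 to 0.767, which covers counting error only. The other 3 tumours lay between 0.104 and 0.153 CPM, with intervals that all overlapped. Csf3 (ENSMUSG00000038067, plus strand of chromosome 11, 98701263 to 98703629) encodes G-CSF and had 2, 1, 1 and 1 counts, under the limit of 3 counts that a count of 0 allows. No fold is given for Csf3, and a difference in either gene was not detectable at this depth.

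Csf3r (ENSMUSG00000028859, plus strand of chromosome 4, 126024550 to 126044440) encodes the receptor of G-CSF, carried by neutrophils and at a lower level by monocytes. Its level was 2.77 and 5.36 CPM in dinutuximab tumours 3 and 4 and 2.67 and 5.03 CPM in sEV tumours 3 and 4. Both tumours numbered 3 were low and both numbered 4 were high, in either group. Means were 4.07 ± 1.84 CPM and 3.85 ± 1.66 CPM (SD, n = 2), and the log2 fold change was -0.074 ± 0.41 (SE; 95% interval from -1.004 to 0.86, edgeR adjusted p = 0.992). Leaving out 1 tumour turned the sign in 2 cases, to 0.48 without dinutuximab tumour 4 and to 0.30 without sEV tumour 3, and gave -0.60 without sEV tumour 4.

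Neutrophil markers were close to absent in the tumours that expressed Csf3r. Of 12 markers, Ly6g, Ngp, Elane and Stfa2l1 had 0 counts in all 4 libraries, and 8 in all had at most 3 counts in any library. The 12 together summed to 0.390 and 0.573 CPM with dinutuximab and to 1.22 and 1.21 CPM with sEVs added. S100a8 had 1 and 5 counts in the dinutuximab tumours against 13 and 11 in the sEV tumours, and S100a9 had 6 and 1 against 10 and 11. These 2 calgranulin genes, the only markers of the list that were tested, did not pass (edgeR adjusted p = 0.861 and 0.887). Both reached the filter on low counts only through the sEV tumours, where their counts were higher. Their tests are therefore no evidence of a difference. The part of neutrophils in the Csf3r level was not tested.

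Relatives of the GM-CSF system that share the beta chain had few or no counts, except Il3ra. Il3 and Il5ra, which encode interleukin 3 and the alpha chain of the interleukin 5 receptor, had 0 counts in all 4 tumours. In these tumours 3 counts correspond to between 0.104 and 0.123 CPM. Il5, the eosinophil growth factor gene, had 2 counts in dinutuximab tumour 4 and 0 elsewhere. Il3ra, the alpha chain of the interleukin 3 receptor, was measured at 4.60 and 6.35 CPM with dinutuximab and at 5.16 and 5.68 CPM with sEVs added, with a log2 fold change of -0.013 ± 0.26 (SE; edgeR adjusted p = 0.999).

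**Figure D2:**
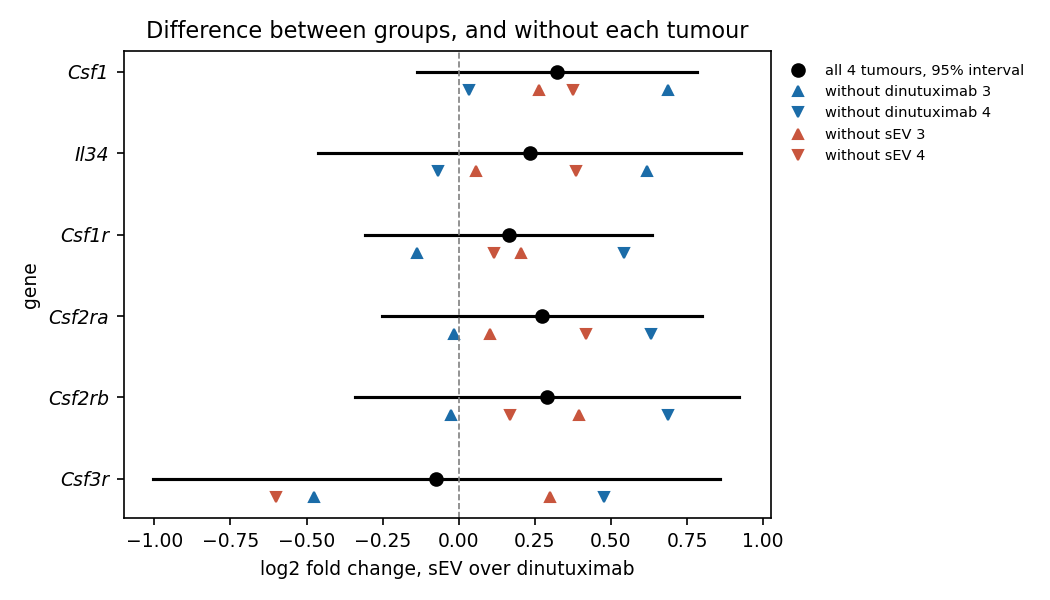
Log2 fold change of sEV over dinutuximab tumours for the 6 tested genes (black points, with the 95% interval of the edgeR fit as a bar) and the value when 1 tumour is left out (triangles). Every interval spans 0. Leaving out dinutuximab tumour 3 or 4 leaves the other alone in its group. Values on opposite sides of that from all 4 tumours therefore follow from the design, and only their distance is informative.

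Inside the dinutuximab group the 2 tumours differed beyond counting error in all 6 tested genes. Tumour 4 over tumour 3 was 0.636 for Csf1 and 0.621 for Il34, with counting intervals from 0.605 to 0.668 and from 0.466 to 0.823. For the receptors the same ratio was above 1, at 1.60 for Csf1r, 1.57 for Csf2ra, 1.64 for Csf2rb and 1.94 for Csf3r, with counting intervals that all excluded 1. These intervals cover counting error only, and the share of all tested genes whose interval excludes 1 was not computed. Over all genes with at least 10 counts, these 2 libraries differed beyond counting, with a chi-square per degree of freedom of 23.9. Both ligands of CSF1R were thus lower, and all 4 receptors higher, in dinutuximab tumour 4 than in dinutuximab tumour 3. Between these 2 tumours 6 of the 6 tested genes differed by more than 1.5-fold, against 12.4% of all tested genes, a limit chosen after their values were seen. In the sEV group 1 of the 6, Csf3r at 1.88-fold, differed by more than 1.5-fold, against 13.1% of all tested genes. There the ratio was 0.933 for Csf1, 0.803 for Il34, 1.07 for Csf1r, 0.808 for Csf2ra and 1.18 for Csf2rb. The differences between the 2 dinutuximab tumours have no replicate check of their own.

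**Figure D3:**
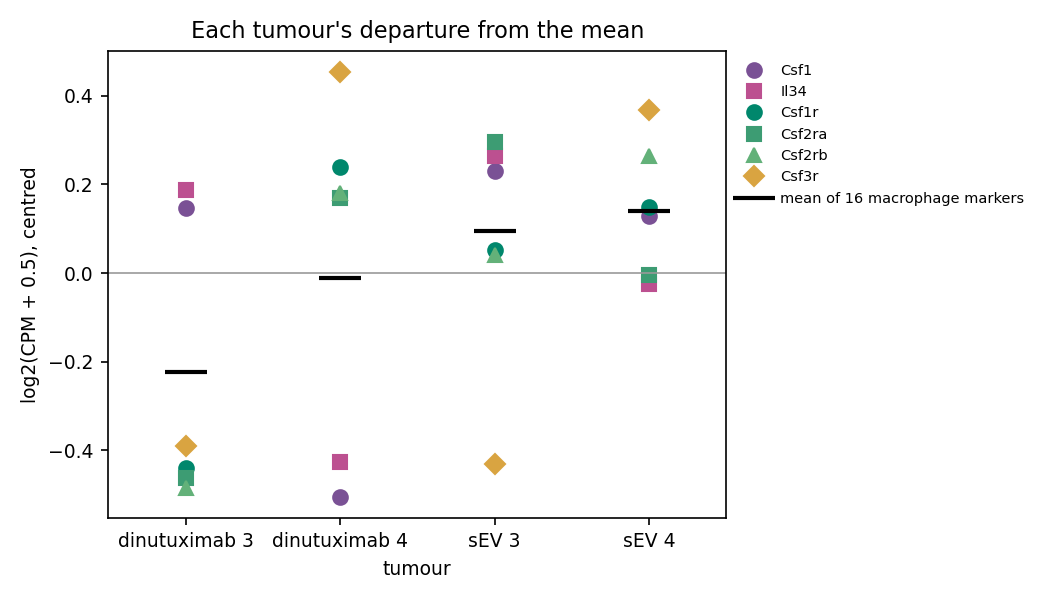
Departure of each gene from its own mean over the 4 tumours, as centred log2(CPM + 0.5), with the mean of 16 macrophage markers as a black bar. In dinutuximab tumour 3 the 2 ligands lie above 0 and the 4 receptors below it, in dinutuximab tumour 4 the reverse, and Csf3r in the sEV tumours lies far below and far above 0.

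The 4 receptors among the 8 genes differed between the dinutuximab tumours in the same direction. The promoters of those found in the RefSeq table are therefore shown, with that of Csf1, which differed in the opposite direction. Of the 8 genes, 4 had an entry there (GRCm38.p6, 250 bases before to 50 after the transcript start). Among their relatives Csf2rb2 had one too and is shown. The entries of Csf2, Il3, Il3ra, Il5 and Il5ra are not shown. Capitals mark the 6-letter core GAGGAA, which the myeloid factor PU.1 is known to bind, or its reverse complement TTCCTC.
Csf2ra, chr19:61228369-61228668, minus strand: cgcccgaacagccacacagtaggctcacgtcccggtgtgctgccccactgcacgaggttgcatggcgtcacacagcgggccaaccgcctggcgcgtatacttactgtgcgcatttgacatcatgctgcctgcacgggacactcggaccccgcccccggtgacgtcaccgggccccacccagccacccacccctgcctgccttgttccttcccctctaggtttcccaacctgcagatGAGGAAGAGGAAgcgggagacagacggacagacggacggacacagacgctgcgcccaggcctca
Csf3r, chr4:126024409-126024708, plus strand: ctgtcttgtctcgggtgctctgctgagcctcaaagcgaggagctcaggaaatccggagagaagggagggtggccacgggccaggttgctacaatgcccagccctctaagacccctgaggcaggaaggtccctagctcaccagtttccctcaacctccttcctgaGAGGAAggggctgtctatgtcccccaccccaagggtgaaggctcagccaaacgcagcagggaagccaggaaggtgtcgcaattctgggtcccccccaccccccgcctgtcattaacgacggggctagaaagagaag
Csf2rb2, chr15:78305672-78305971, minus strand: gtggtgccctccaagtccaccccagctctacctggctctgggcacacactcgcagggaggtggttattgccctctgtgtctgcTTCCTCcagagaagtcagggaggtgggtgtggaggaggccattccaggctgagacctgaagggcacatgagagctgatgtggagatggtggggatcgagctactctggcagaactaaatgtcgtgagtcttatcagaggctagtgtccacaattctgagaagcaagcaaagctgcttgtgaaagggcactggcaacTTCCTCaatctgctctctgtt
Csf1, chr3:107760420-107760719, minus strand: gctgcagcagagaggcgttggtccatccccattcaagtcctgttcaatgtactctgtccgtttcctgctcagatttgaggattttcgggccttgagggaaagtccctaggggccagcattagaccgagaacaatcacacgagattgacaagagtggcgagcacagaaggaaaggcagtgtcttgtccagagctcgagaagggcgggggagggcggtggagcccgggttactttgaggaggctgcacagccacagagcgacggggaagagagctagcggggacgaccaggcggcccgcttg

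The core occurred 2 times in the window of Csf2ra, directly one after the other just before the start, 1 time in that of Csf3r and 2 times in that of Csf2rb2. It did not occur in the window of Csf1, nor in those of Csf2 and Il3ra, and it occurred 1 time each in those of Il3, Il5 and Il5ra, genes with at most 2 counts in any tumour. Windows with the core were thus not limited to the receptors that differed between the tumours. Nor did every receptor that differed have one. Il3ra, without the core, was 1.38-fold higher in dinutuximab tumour 4 than in dinutuximab tumour 3 (counting interval from 1.08 to 1.77). Over all 32851 promoter windows of this length, 28.3% held the core on either strand. The longer GAGGAAGT, searched on both strands as well and containing the core, was found in 3.2% of windows and among those shown in that of Csf2rb2. The start of the Csf3r entry lies 109 bases from the gene start in GENCODE and that of Csf2ra 11 bases. For Csf2 and Il3ra, whose windows lacked the core, the distances were larger, at 232 and 220 bases. The absence of the core there holds for these windows only. These matches describe letters in a window and are no evidence of binding.

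Macrophages are the main carriers of CSF1R, and their markers were measured in the same tumours. Of 16 macrophage markers all were tested, 15 had positive log2 fold changes with a median of 0.21, and 0 passed edgeR's test over all genes. At an unadjusted p under 0.05, 3 were higher and 0 lower, where 2.47% and 3.1% of all tested genes were. Both sEV tumours lay above both others in 8 of the 16 and below them in 0, against 18.1% and 16.5% of all tested genes. Their summed level was 2838 and 3208 CPM with dinutuximab and 3608 and 3603 CPM with sEVs added, so that dinutuximab tumour 3, the tumour of lowest Csf1r, was also lowest here. None of the 16 was at 0. The difference in mean centred log2 level, sEV minus dinutuximab, was 0.20 for Csf1r, and relative to the mean of the macrophage markers it was -0.032. For Csf2ra it was 0.29 and, relative to the markers, 0.059, and for Csf2rb 0.30 and 0.071. For Csf3r it was -0.064 and, relative to the same markers, -0.30. The ligands had 0.36 and 0.13 (Csf1) and 0.24 and 0.0051 (Il34), so a smaller value relative to the markers was not limited to receptors. Inside the dinutuximab group Csf1r relative to the markers still differed, at -0.22 in tumour 3 and 0.25 in tumour 4. The part of macrophage content in these levels was not tested.

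Other myeloid markers went separate ways. Of 8 monocyte markers 7 had positive values (median 0.43), among them Ccr2, the monocyte chemokine receptor, at 4.29 and 8.60 CPM with dinutuximab and at 12.6 and 15.4 CPM with sEVs added (log2 fold change 1.12 ± 0.31, SE; edgeR adjusted p = 0.646). Dendritic cell markers were sparse, with 4 of 9 tested and summed levels of 7.87 and 17.0 CPM against 9.51 and 11.9 CPM, and Siglech at 0. Markers of mast cells, eosinophils and basophils summed to between 1.95 and 4.26 CPM with dinutuximab and between 1.28 and 2.52 CPM with sEVs added, with Ms4a2, Epx and Prg2 at 0. T and NK cells, which can make GM-CSF, had summed marker levels of 9.55 and 12.0 CPM with dinutuximab and of 8.17 and 16.7 CPM with sEVs added, none of 13 at 0. Of 5 B cell markers none was at 0, and they summed to 5.89 and 7.33 CPM against 4.32 and 16.6 CPM. Stromal cells are a source of CSF1, and of 6 fibroblast markers, none at 0, 4 had negative and 2 positive log2 fold changes (median -0.61), with 3 lower and 1 higher at an unadjusted p under 0.05, where 3.1% and 2.47% of all tested genes were. Their sum, 341 and 353 CPM against 555 and 349 CPM, was mostly Dcn, a matrix proteoglycan gene, at 268 and 261 CPM against 482 and 288 CPM. All 6 endothelial markers were negative (median -0.42), none was at 0, and they summed to 118 and 126 CPM against 97.3 and 90.6 CPM. The part of these cells in the Csf1 level was not tested. In none of these lists did a gene pass edgeR's test over all genes.

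Genes that carry the signal inside the cell had a median near 0. Of 19 receptor signalling genes, all tested, 6 were positive and 13 negative with a median of -0.032, and 0 passed the test, where 0% of all genes did. Sh2b3, an adaptor that restrains JAK2, had 90.5 and 124 CPM with dinutuximab and 67.0 and 87.6 CPM with sEVs added, with both sEV values below both others (log2 fold change -0.47 ± 0.19, SE; edgeR adjusted p = 0.858). Lyn, a SRC-family kinase, had 34.02 and 34.5 CPM against 44.4 and 40.6 CPM (0.31 ± 0.14; edgeR adjusted p = 0.885). Stat5a, a transcription factor downstream of the GM-CSF receptor, was at 1.99 and 1.88 CPM against 2.52 and 3.26 CPM (0.58 ± 0.32; edgeR adjusted p = 0.888). The more abundant Stat5b was at 4.21 and 4.75 CPM against 3.97 and 4.78 CPM (-0.032 ± 0.26), with overlapping groups. Tyrobp, the adaptor DAP12 and the most abundant of the list per length, had 0.19 ± 0.12. Both sEV tumours lay above both others in 3 of the 19 genes and below them in 4, against 18.1% and 16.5% of all tested genes.

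STAT target and feedback genes were mostly on the negative side. Of 10 genes, all tested, 3 were positive and 7 negative (median -0.14), 0 passed, and 1 was lower at an unadjusted p under 0.05, where 3.1% of all tested genes were. That gene, Pim2, a survival kinase induced by cytokines, had 12.2 and 10.6 CPM with dinutuximab and 6.68 and 8.46 CPM with sEVs added (log2 fold change -0.59 ± 0.22, SE; edgeR adjusted p = 0.804). Its relative Pim1 had 12.9 and 13.7 CPM against 9.74 and 10.5 CPM (-0.39 ± 0.18; edgeR adjusted p = 0.885). The survival genes Bcl2l1 and Mcl1 had 0.23 ± 0.15 and -0.12 ± 0.12. Cish, a feedback inhibitor and direct STAT5 target, was at 5.14 and 4.75 CPM against 4.62 and 5.44 CPM (0.025 ± 0.25), with overlapping groups. In the same tumours 9 of 10 immediate early and heat shock genes were negative, with a median of -0.47 and summed levels of 551 and 539 CPM against 437 and 456 CPM. None of these 10 was at 0, and their part in the values of the STAT list was not tested.

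Myeloid transcription factors showed values on both sides. Of 12 genes 10 were tested, 4 positive and 6 negative with a median of -0.10, and 0 passed. Cebpb, a factor of emergency myelopoiesis and of macrophage activation, had 103 and 109.8 CPM with dinutuximab and 67.4 and 82.7 CPM with sEVs added (log2 fold change -0.50 ± 0.14, SE; edgeR unadjusted p = 0.00793, adjusted p = 0.676). Maf, a factor of resident macrophages, had 27.2 and 29.9 CPM against 40.7 and 39.4 CPM (0.49 ± 0.14; edgeR unadjusted p = 0.00802, adjusted p = 0.676). Spi1, which encodes PU.1, a direct activator of Csf1r, had 31.3 and 36.0 CPM against 43.8 and 40.3 CPM (0.32 ± 0.15; edgeR adjusted p = 0.885). Over the 10 tested genes the sEV tumours lay above both others in 2 and below them in 2, against 18.1% and 16.5% of all tested genes. The macrophage markers stood at a median of 0.21 and the immediate early and heat shock genes at -0.47 in the same tumours, and their part in these values was not tested.

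Genes tied to the release or capture of the ligands and receptors were measured as well. ADAM17 sheds CSF1R and membrane-bound CSF1 from cells, and syndecan-1 and the receptor phosphatase PTPRZ1 can bind interleukin 34. Of the 6 genes 5 were tested, 3 positive and 2 negative (median 0.29), 0 passed, and Ptprz1 had 0 counts in all 4 tumours. Adam17 was at 80.5 and 84.8 CPM against 67.3 and 81.0 CPM (log2 fold change -0.16 ± 0.14, SE). Adam10, a related sheddase, had 150 and 157 CPM against 189.8 and 185 CPM (0.29 ± 0.12; edgeR adjusted p = 0.877). Sdc1 was at 365 and 393 CPM against 537 and 390.3 CPM, with sEV tumour 3 alone high (0.29 ± 0.17). Furin, a proprotein convertase, had 91.8 and 140.1 CPM against 101 and 94.3 CPM (-0.25 ± 0.19).

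**Figure D4:**
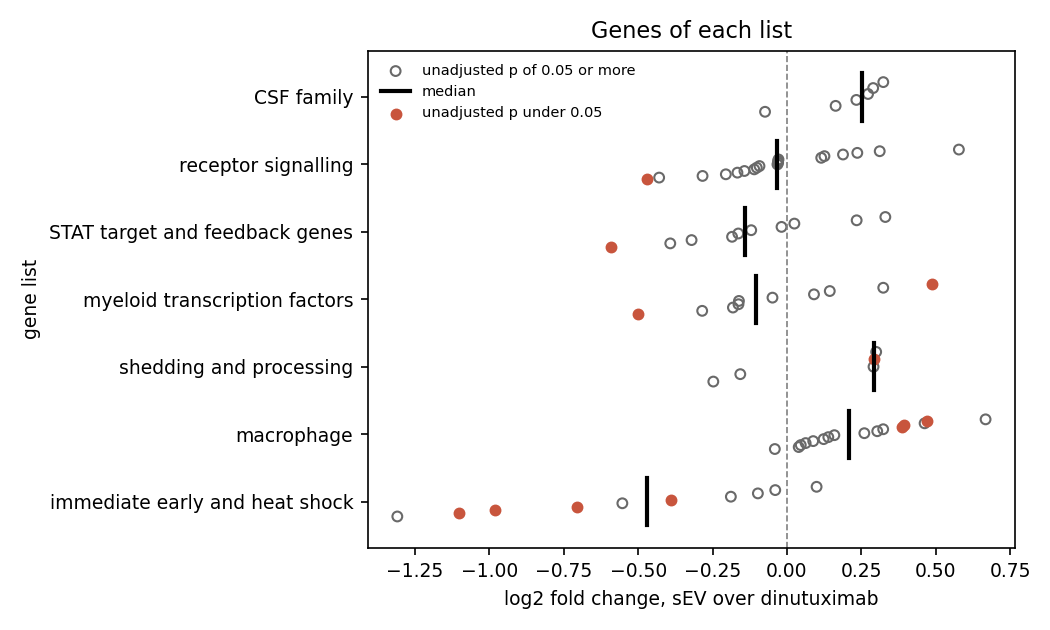
Log2 fold change (sEV over dinutuximab) of each tested gene of 7 lists, filled red where the unadjusted edgeR p is under 0.05, with the list median as a black bar. The colony-stimulating factor family (CSF family) has a median of 0.25 and the macrophage markers 0.21. The median is -0.032 for receptor signalling, -0.14 for STAT target and feedback genes and -0.10 for myeloid transcription factors.

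Likeness of profile was measured as the root mean square difference of centred log2 CPM over the 4 tumours, among the 115 tested genes of the other lists. The genes nearest to Csf1r were Ccr7 at 0.12, Il3ra at 0.13 and Ikzf1 at 0.14. Nearest to Csf2ra were Itgam at 0.10, Mertk at 0.11 and Ikzf1 at 0.12, and nearest to Csf2rb were Cd79b at 0.13, Ccr7 at 0.14 and Lyz2 at 0.16. For Csf3r they were Irf8 at 0.16, Cd4 at 0.18 and Csf2rb2 at 0.19. The ligands had S100a9 (0.10), Cd79a (0.17) and Socs2 (0.21) nearest to Csf1, and Socs2 (0.13), S100a9 (0.17) and Cd79a (0.18) nearest to Il34. Several of these near genes had few counts, and the added 0.5 flattens the differences of such genes. S100a9 had between 1 and 11 counts, Ccr7 between 8 and 16, Cd4 between 3 and 26 and Socs2 between 11 and 32. Their nearness to a member is thus set in part by that constant. With 4 tumours many genes are as near: among all tested genes 298 were as near to Csf1r as Ccr7, and 60 as near to Csf1 as S100a9.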

How the data were processed

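Messenger RNA of 4 tumours was sequenced. Raw counts per Ensembl gene were deposited by the authors as a table of the series and as a table per sample, and all 173728 values agreed. STAR, SAMtools, HTSeq and the mm10 build are named in the submitters' processing notes, with versions, annotation release, counting mode and strand setting not given in the sources used here. GENCODE M21 (GRCm38) named 42548 of 43432 IDs. The tests were run with edgeR 4.0.16 (R 4.3.3): filterByExpr, which kept 13823 genes, TMM factors (0.976 to 1.024), and the quasi-likelihood test with the group as the only term, Benjamini-Hochberg adjusted at 0.05. CPM uses TMM-scaled library sizes, and RPKM divides CPM by the union of exons. Fold changes are sEV over dinutuximab, with the standard error and 95% interval of the fit. The fit was tested on simulated data. DESeq2 1.42.0, limma-voom (limma 3.58.1), other scalings and filters, robust dispersions, the tumour number as a block, summed copies and leaving out each library were the alternatives. The members and lists were chosen with earlier results of these data known. Genes named were all 8 members, their 5 interleukin relatives, in each pathway list the 3 of lowest p and the 1 of highest RPKM, and the 3 list genes nearest to each tested member. Other marker and list genes were named after their values were seen. One marker gene is not reported here. Fits without 1 library assume that the remaining library of that group varies as much as the other group does.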

Additional observations from a re-analysis of the deposited data

How the results depend on the processing

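None of the 6 tested colony-stimulating factor genes was called under any alternative, with adjusted p between 0.448 and 1. Over all genes the edgeR test called 0 of 13823, DESeq2 45 of 22003 and edgeR without a filter on low counts 262 of 22003. Without sEV tumour 3 there were 132 calls and without sEV tumour 4 there were 316, and in both fits the prior degrees of freedom were infinite. With the replicate number as a block, 67 of 13823 genes were called and none of the 6. The numbers were not taken to pair the tumours, because they are not stated to do so. The deviations of same-numbered tumours correlated at 0.094, which with 2 tumours a group cannot exclude a pairing. Leaving out 1 library moved the log2 fold change from 0.033 to 0.69 for Csf1, -0.069 to 0.62 for Il34, -0.14 to 0.54 for Csf1r, -0.017 to 0.63 for Csf2ra, -0.026 to 0.69 for Csf2rb and -0.60 to 0.48 for Csf3r. Other alternatives kept every direction. Csf2 and Csf3 have no tested value to compare. The causes were not tested. With 2 tumours a group, the intervals of the 6 genes leave room for differences of over 1.5-fold.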
